A study of Sus scrofa with 30 samples.

Results

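The ssc-miRNAs followed here are miR-9, miR-204 and miR-138 in the plasma of irradiated minipigs. They are the rows of the count table named as ssc-miR-9, ssc-miR-138, ssc-miR-204 or ssc-miR-211, with or without a suffix for the gene copy or arm. Of 411 rows, 5 met this rule, namely ssc-miR-9-1 with its copy ssc-miR-9-2, the separate row ssc-miR-9, and the single rows ssc-miR-138 and ssc-miR-204. The table held 0 rows for ssc-miR-211. The counts of ssc-miR-9-1 and ssc-miR-9-2 were identical in every library, so the 5 rows gave 4 measurements, and ssc-miR-9-1 stands for both. The members were chosen by their fold changes from baseline 17 days after total body irradiation (TBI), so their values at 17 days are given as a description, without a test.

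MicroRNAs are short RNAs that pair with messenger RNAs mainly through their seed, which is bases 2 to 8, and lower the stability or translation of their targets. miR-9 is abundant in brain, is made from several genes, and is known for its role in the formation of neurons. miR-204 lies within the gene of the cation channel TRPM3 and is abundant in retinal pigment epithelium, choroid plexus and kidney, and miR-211 is its close relative. miR-138 is abundant in brain and is known for restraining the growth of dendritic spines. MicroRNAs in plasma come from many tissues and blood cells, so the number of releasing cells and the amount each released cannot be told apart.

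The study's own network lists give the seeds of miR-9-5p and miR-138-5p, which are shown because the seed decides which targets a miRNA can pair with. Both are written 5′ to 3′ with the whole seed in capitals.
miR-9-5p: CUUUGGU
miR-138-5p: GCUGGUG
The seeds differ from each other, and none of the other names among the 58 with a listed seed shared either one. The RefSeq annotation of the pig (Sscrofa11.1, used for names and neighbours) lists 3 miR-9 genes. MIR9-1 overlaps a long non-coding RNA and has RHBG, an ammonia transporter gene, as its nearest protein-coding gene. MIR9-2 has MEF2C, a transcription factor gene, as its nearest protein-coding gene, and MIR204 lies within TRPM3. Mature miR-9 from its several genes is alike in sequence, so the rows ssc-miR-9-1, ssc-miR-9-2 and ssc-miR-9 do not say which gene the reads came from.

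Plasma small RNA was sequenced from 3 male Göttingen minipigs of about 4 months of age, each of which received 2.2 Gy TBI. The study describes this as a lethal dose, and none of the 3 animals survived it. Blood was drawn from the same animals at 10 time points, 2 before TBI (C7 and C1, 7 days and 1 day before) and 8 after it, from 0d, hours after TBI, to 20d. The study took C7 and C1 as baseline and grouped the later draws into phases, which it set from the same libraries: Early for 0d, 1d, 3d and 7d, Mid for 10d with 14d, then Late for 17d alone and LR for 20d alone. The animals were the vehicle arm of a drug study, so each received 5% dextrose under the skin on days 1 and 8, and antibiotics were given when neutrophils were low. There was no unirradiated animal over the same days, so irradiation, illness before death, age, repeated bleeding and supportive care cannot be told apart.

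Of 30 libraries, 24 held at least 1000 counts and were used. They comprised 6 pre-TBI, 10 Early, 4 Mid, 2 Late and 2 LR libraries, with totals from 24341 to 550316 counts. The 6 left out were those of minipig 3 from 3d on, with 0 to 17 counts in total. Of the members, they held a single count, of ssc-miR-204 at 17d. Mid, Late and LR therefore rest on minipigs 1 and 2 alone. The Late libraries were shallow, with 29159 counts in minipig 1 and 63441 in minipig 2. The shallowest library of all was an unirradiated one, C7 of minipig 1 with 24341 counts. That library, 10d and 17d of minipig 1 stood apart from the rest in composition: the summed neural miRNAs listed further on made up 6.30%, 6.95% and 8.72% of their counts, against at most 4.17% in the other libraries. Within the neural list ssc-miR-124a carried this difference, and without it the list made up 1.48%, 1.37% and 1.60%, within the range of the others. Other lists given further on differed too. Platelet and leukocyte miRNAs made up 10.8%, 11.5% and 15.5% of their counts, against at most 10.6% in the other libraries. Epithelial and sensory miRNAs made up 5.12%, 5.56% and 7.32%, which only 17d of minipig 2 exceeded, with 19.3%. Where a value is also given without one of these libraries, the text says so beside it.

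Levels are CPM, counts scaled to a common library total, after TMM scaling, a correction for differences in composition between libraries. Before TBI, ssc-miR-9-1 ranged from 125 to 884 CPM, with a median of 204.7, and at Early from 182.6 to 314 CPM with a median of 271. The highest pre-TBI value, 884 CPM, was C7 of minipig 1, and the next was 275 CPM, C1 of the same animal. All 10 Early libraries fell inside the pre-TBI range. At Mid, minipig 1 had 998 CPM at 10d and 236 at 14d. Minipig 2 had 257 CPM at 10d and 114 at 14d, so only 10d of minipig 1 was above the pre-TBI range. At 17d, ssc-miR-9-1 reached 1045 CPM in minipig 1, from 22 counts, and 5795 CPM in minipig 2, from 369 counts. At 20d it was 350 CPM in minipig 1 and 926 CPM in minipig 2. Both 17d libraries thus lay above every pre-TBI library, while at 20d this held for minipig 2 alone. The top of the pre-TBI range rests on C7 of minipig 1. Without that library it is 275 CPM. The 20d library of minipig 1, its 0d library and the 1d library of each minipig exceed that.

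**Figure D1:**
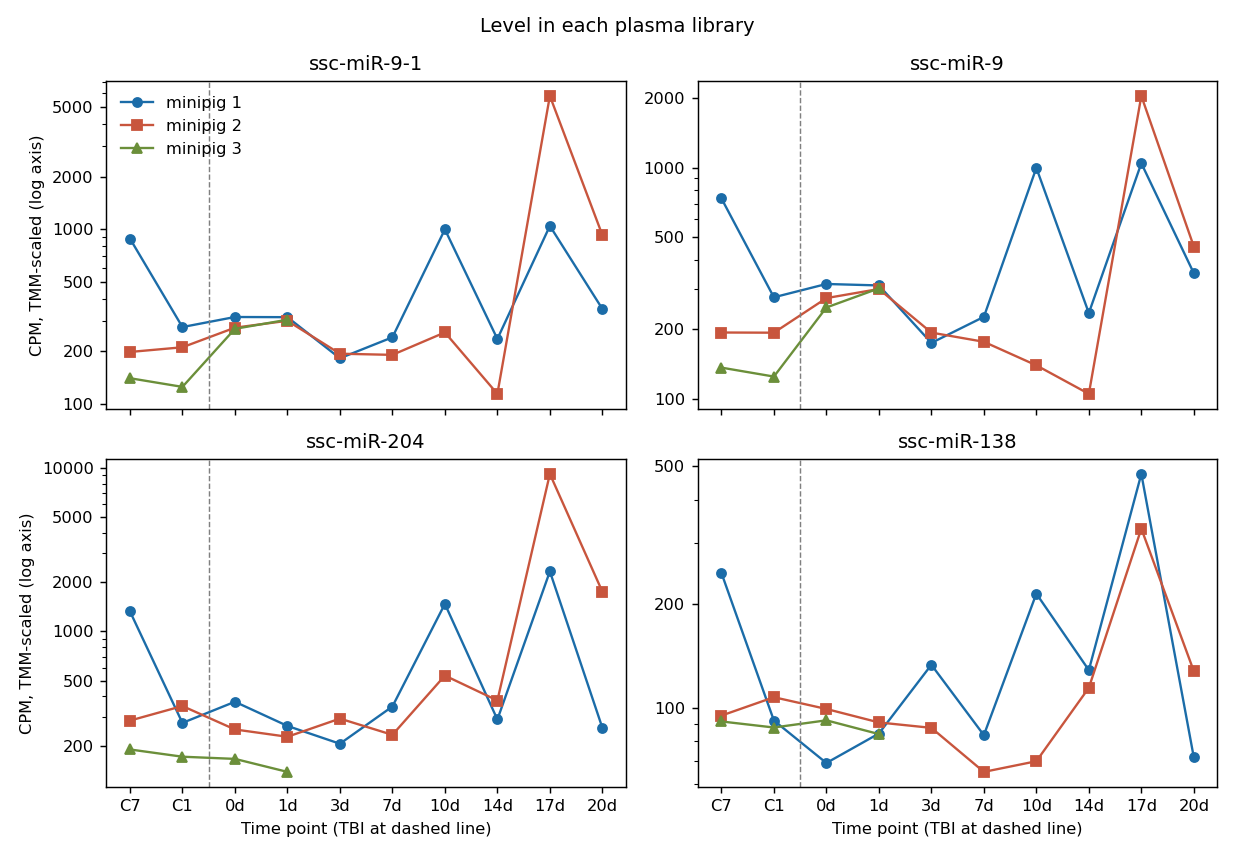
Level of the 4 measurements (CPM after TMM scaling, log axis) in each library against the time point, with 1 line per minipig and the pre-TBI time points C7 and C1 on the left. At 17d the line of minipig 2 reaches 5795 CPM for ssc-miR-9-1 and 9188 CPM for ssc-miR-204, and C7 of minipig 1 lies at 884 and 1327 CPM.

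The 17d level relative to baseline differed between the animals. In minipig 2 ssc-miR-9-1 was 29.2-fold above its own C7 library and 27.5-fold above its own C1 library. In minipig 1 it was 1.18-fold above C7 and 3.79-fold above C1. Before TMM scaling, C7 of minipig 1 held 739 CPM of ssc-miR-9-1 with an exact 95% binomial interval of 438 to 1169, and its 17d library 754 with an interval of 473 to 1142. These intervals cover counting error only. For minipig 2 they were 148 to 270 CPM at C7 and 5240 to 6439 at 17d. They are given as a description because the 17d level chose the members.

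ssc-miR-9 is a separate row whose counts nearly matched those of ssc-miR-9-1 in most libraries. Its count was at or below that of ssc-miR-9-1 in 24 of 24 libraries and equal to it in 10. In 21 of the libraries it held 83.3% to 100% of the ssc-miR-9-1 count, with a difference of at most 9 counts. The other 3 libraries were all from minipig 2. At 17d ssc-miR-9 had 130 counts against 369, or 35.2% (exact 95% interval 30.4% to 40.3%). At 20d it had 329 against 668, or 49.3% (45.4% to 53.1%), and at 10d 6 against 11, or 54.5% (23.4% to 83.3%). Of the 614 counts by which ssc-miR-9-1 exceeded ssc-miR-9 over all libraries, 578 (94.1%) were in the 17d and 20d libraries of minipig 2.

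For comparison, ssc-miR-339 and ssc-miR-339-5p are another pair of rows in which the first never exceeded the second. There the share was 85.3% to 96.3% in all 24 libraries, without a drop at 17d or 20d of minipig 2. The excess of ssc-miR-9-1 over ssc-miR-9 thus lay mainly in the 17d and 20d libraries of minipig 2. How the authors assigned a read that matches several rows is not given in the sources used here, and which sequences lay behind the excess was not tested.

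**Figure D2:**
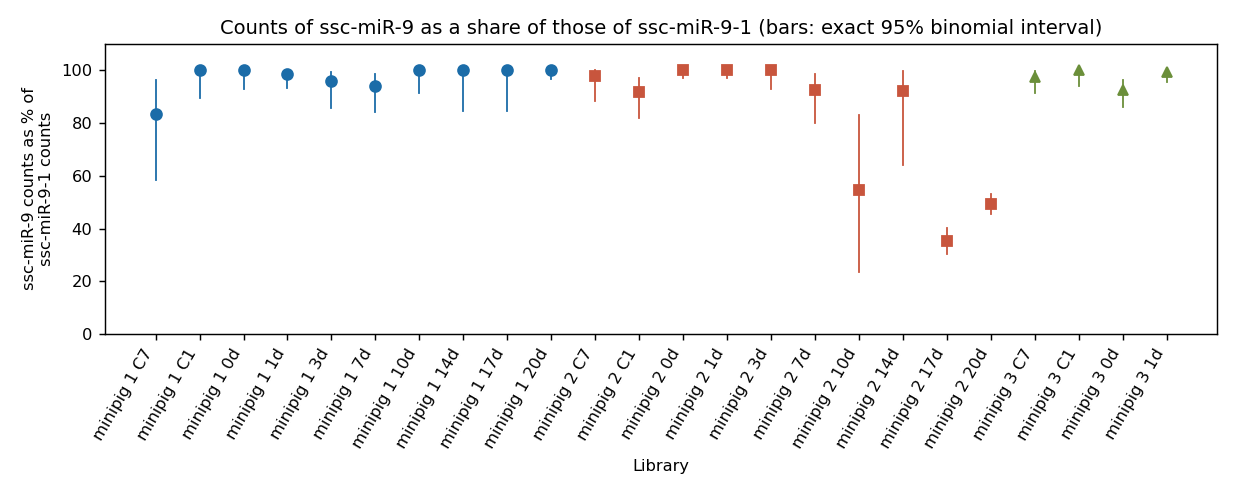
Counts of ssc-miR-9 as a percentage of the counts of ssc-miR-9-1 in each of the 24 libraries, with exact 95% binomial intervals as bars. The 17d, 20d and 10d libraries of minipig 2 lie at 35.2%, 49.3% and 54.5%, and all others at 83.3% or above.

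In its own levels, ssc-miR-9 had 125 to 737 CPM before TBI, with a median of 193.9, and 175 to 314 CPM at Early, with a median of 261. At Mid it was 998 and 236 CPM in minipig 1 and 140 and 105.4 CPM in minipig 2 at 10d and 14d. At 17d it was 1045 CPM in minipig 1 and 2042 CPM in minipig 2. The gap between the animals at 17d was therefore 1.95-fold for ssc-miR-9 and 5.55-fold for ssc-miR-9-1. At 20d ssc-miR-9 was 350 CPM in minipig 1 and 456 CPM in minipig 2, both within the pre-TBI range. Without C7 of minipig 1 that range ends at 275 CPM, and both 20d libraries exceed it. So do 0d of minipig 1 and the 1d library of each minipig.

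ssc-miR-204, the TRPM3-hosted miRNA, had the most counts of the 4 measurements at 17d in both animals. Before TBI it ranged from 171 to 1327 CPM with a median of 280, and at Early from 138.2 to 371 CPM with a median of 242. Again the highest pre-TBI library was C7 of minipig 1, and 2 of the 10 Early libraries were below every pre-TBI library. At Mid it was 1473 and 289 CPM in minipig 1 and 537 and 378 CPM in minipig 2 at 10d and 14d. Without C7 of minipig 1 the pre-TBI range ends at 349 CPM. The highest Early library, 10d of minipig 1 and both Mid libraries of minipig 2 exceed that. At 17d it reached 2327 CPM in minipig 1, from 49 counts, and 9188 CPM in minipig 2, from 585 counts. At 20d it was 257 CPM in minipig 1 and 1750 CPM in minipig 2. The animals thus parted at 20d, where minipig 2 was above every pre-TBI library and minipig 1 was within their range.

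Against its own C7 library, ssc-miR-204 at 17d was 32.3-fold higher in minipig 2 and 1.75-fold higher in minipig 1. Against C1 the values were 26.3-fold and 8.45-fold. Before TMM scaling, minipig 1 had 1109 CPM at C7 (exact 95% interval 731 to 1614) and 1680 at 17d (1244 to 2221). At 20d the level was lower again in both animals, at 0.190 of the 17d level in minipig 2 and 0.111 of it in minipig 1.

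ssc-miR-138 had the fewest counts of the 4 measurements, and on it the animals lay closest at 17d. It ranged from 87.6 to 246 CPM before TBI with a median of 93.4, and from 65.2 to 133.1 CPM at Early with a median of 85.8. Of the 10 Early libraries, 6 were below every pre-TBI library. At Mid it was 214 and 128.5 CPM in minipig 1 and 70.0 and 114 CPM in minipig 2 at 10d and 14d. At 17d it was 475 CPM in minipig 1 and 330 CPM in minipig 2, from 10 and 21 counts, and at 20d 71.8 and 127.6 CPM. Before TMM scaling the 17d values were 343 and 331 CPM, so nearly all of the gap between the animals at 17d came with the scaling factors, and at 20d neither animal was above the pre-TBI range. Without C7 of minipig 1 the top of that range is 107.3 CPM, which 20d of minipig 2, 10d of minipig 1, both 14d libraries and the highest Early library exceed. The 17d level was 1.93-fold over C7 and 5.17-fold over C1 in minipig 1, and 3.48-fold and 3.08-fold in minipig 2. At 10 and 21 counts the counting error alone is wide, with exact 95% intervals of 164 to 631 and 204.9 to 506 CPM before TMM scaling, and of 66.7 to 479 for the 5 counts of C7 of minipig 1.

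The plot of level against depth shows the higher levels of minipig 1 in its shallow libraries. In minipig 1 the 3 libraries with the highest ssc-miR-9-1 level, 17d, 10d and C7, had 29159, 59291 and 24341 counts, and they were also its 3 shallowest. In minipig 2 the 17d library was shallow too, but the 10d library, with 35762 counts, held 257 CPM of ssc-miR-9-1. The 20d library of minipig 2 was the deepest of all, with 550316 counts, and held 926 CPM of ssc-miR-9-1 and 1750 CPM of ssc-miR-204. In minipig 2 the high levels thus occurred in a shallow and in a deep library. The part of depth in the levels of minipig 1 was not tested.

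**Figure D3:**
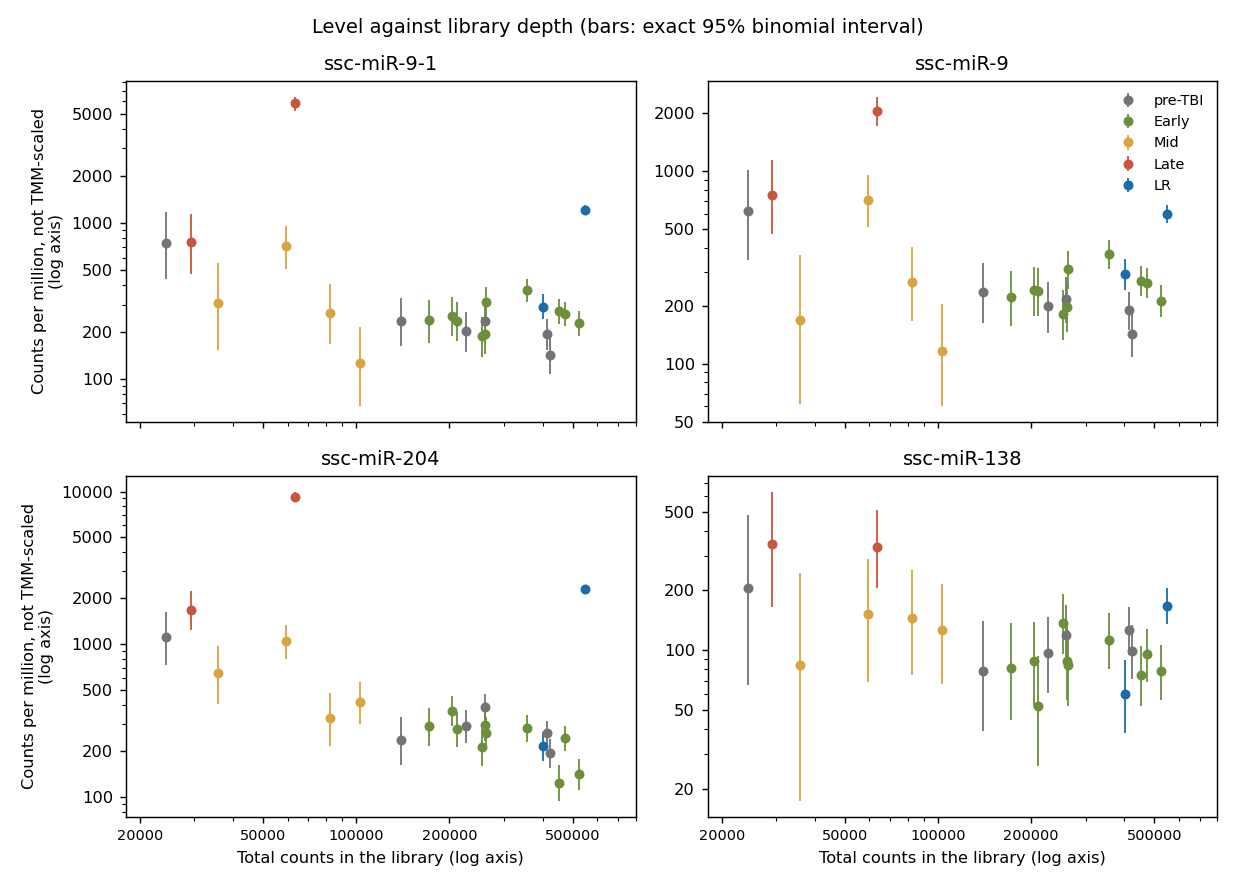
CPM before TMM scaling (log axis) against the total counts of the library (log axis) for the 4 measurements, with exact 95% binomial intervals as bars and colours for the phases. The pre-TBI library with the fewest counts, 24341, lies beside the shallower Late library, with 739 against 754 CPM for ssc-miR-9-1.

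By mean log2 CPM, Late stood highest for each of the 4 measurements. For ssc-miR-9-1 the order was Late (11.27 ± 1.74, SD, n = 2), LR (9.17 ± 0.98, n = 2), Mid (8.22 ± 1.27, n = 4), Early (8.03 ± 0.30, n = 10) and pre-TBI (7.94 ± 0.99, n = 6). For ssc-miR-9 it was Late (10.52 ± 0.68), LR (8.67 ± 0.27), Early (7.99 ± 0.33), Mid (7.98 ± 1.40) and pre-TBI (7.87 ± 0.91). Late's place restates the choice of the members. Among the other neighbours in these orders, only LR and Early of ssc-miR-9 differed by more than the larger of both SDs. For ssc-miR-204 the order was Late (12.18 ± 1.40), LR (9.41 ± 1.93), Mid (9.11 ± 1.02), pre-TBI (8.38 ± 1.05) and Early (7.95 ± 0.43). For ssc-miR-138 it was Late (8.66 ± 0.36), Mid (7.02 ± 0.62), pre-TBI (6.89 ± 0.54), LR (6.70 ± 0.54) and Early (6.57 ± 0.26). For both, no neighbours other than Late differed by more than the larger SD. Without C7 of minipig 1 the pre-TBI means were 7.57, 7.54, 7.98 and 6.67, and without its 10d library the Mid means were 7.63, 7.32, 8.63 and 6.77 for the 4 measurements in the order given above. Their SDs were 0.44, 0.44, 0.42 and 0.10 for pre-TBI and 0.61, 0.56, 0.44 and 0.43 for Mid. More neighbours then differed by more than the larger SD. These were LR and Early of ssc-miR-9-1, Early and pre-TBI of ssc-miR-9, and Mid and pre-TBI of ssc-miR-204. Each SD of Late and LR comes from the 2 animals, and libraries of the same animal at different days are not independent of each other.

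The phases were compared across all 411 rows with edgeR's quasi-likelihood test, and a row was called at a Benjamini-Hochberg adjusted p under 0.05. At Late, the phase used to choose the members, the log2 fold change from pre-TBI was 3.72 (SE 0.63) for ssc-miR-9-1, 2.73 (SE 0.57) for ssc-miR-9, 3.91 (SE 0.66) for ssc-miR-204 and 1.91 (SE 0.36) for ssc-miR-138. Of the 411 rows, 18 (4.38%) were called at Late and 28 (6.81%) had both Late libraries above every pre-TBI library. The members were among both, and nothing is read from this because that contrast chose them. Without the 17d library of minipig 2 the log2 fold changes were 2.05, 2.17, 2.64 and 2.20 in the same order. Without that of minipig 1 they were 4.53, 3.16, 4.65 and 1.68, and without C7 of minipig 1 they were 4.17, 3.01, 4.46 and 1.88. The values of ssc-miR-9-1 and ssc-miR-204 thus moved most with the 17d library of minipig 2. Without it, the calls over all rows went from 18 to 108. Leaving out either 17d library, or all of minipig 1 or 2, leaves a lone Late library that is assumed to vary like the other groups. With only pre-TBI and Late libraries in the fit, or with C7 alone as baseline, 0 of the 411 rows were called.

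**Figure D4:**
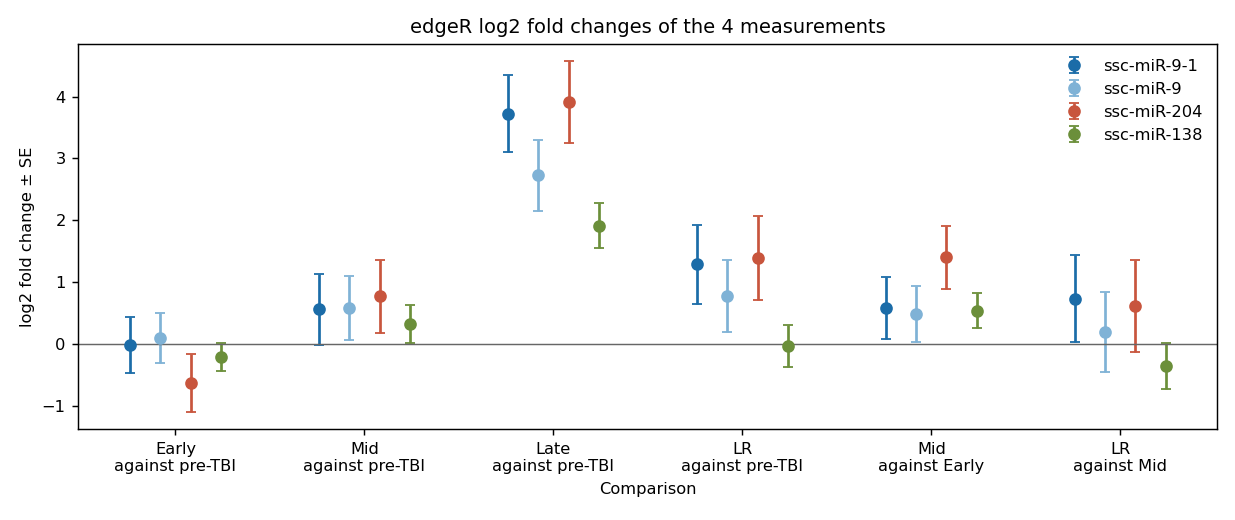
Log2 fold change of the 4 measurements for each phase against the pre-TBI baseline, Mid against Early and LR against Mid, with bars of 1 standard error from edgeR's fit. The Late values of 3.72, 2.73, 3.91 and 1.91 are a description because they chose the members, and 0 of the 4 measurements passed the adjusted test in the 5 other comparisons.

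In the hours and first week after TBI no change of the members was called. At Early, 0 of the 4 measurements were called, as were 0 of all 411 rows (0%), and at an unadjusted p under 0.05 the numbers were 0 of 4 and 77 of 411 (18.7%). The log2 fold change was -0.02 (SE 0.46, adjusted p = 0.980) for ssc-miR-9-1 and 0.09 (SE 0.40, adjusted p = 0.914) for ssc-miR-9. It was -0.63 (SE 0.47, adjusted p = 0.415) for ssc-miR-204 and -0.21 (SE 0.23, adjusted p = 0.774) for ssc-miR-138. DESeq2's Wald test also called 0 of the 4, while it called 33 of the 411 rows. Without C7 of minipig 1 the values were 0.37, 0.37, -0.12 and -0.19 in the same order, again with 0 of the 4 called, while 27 of the 411 rows were.

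At Mid, all 4 measurements had positive log2 fold changes from pre-TBI, none of which passed the test. In edgeR, 0 of the 4 measurements and 0 of 411 rows (0%) were called, and 0 of 4 and 22 of 411 (5.35%) had an unadjusted p under 0.05, while DESeq2 called 0 of the 4. The log2 fold change was 0.56 (SE 0.57, adjusted p = 0.970) for ssc-miR-9-1, 0.58 (SE 0.51, adjusted p = 0.970) for ssc-miR-9, 0.77 (SE 0.59, adjusted p = 0.909) for ssc-miR-204 and 0.32 (SE 0.31, adjusted p = 0.970) for ssc-miR-138. Without the 10d library of minipig 1 the values were -0.36, -0.52, 0.09 and 0.03 in the same order, and without its C7 library 1.02, 0.93, 1.35 and 0.40, with 0 of the 4 called.

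At LR, 0 of the 4 measurements and 0 of 411 rows (0%) were called, with 0 of 4 and 23 of 411 (5.6%) at an unadjusted p under 0.05, and DESeq2 called 0 of the 4. The log2 fold change was 1.29 (SE 0.64, adjusted p = 0.593) for ssc-miR-9-1 and 1.38 (SE 0.68, adjusted p = 0.593) for ssc-miR-204, and the animals parted at 20d as described. It was 0.77 (SE 0.58, adjusted p = 0.593) for ssc-miR-9 and -0.04 (SE 0.34, adjusted p = 0.961) for ssc-miR-138. Without the 20d library of minipig 2, which also leaves a lone LR library, the 4 values in the order named here were 0.22, -0.76, 0.36 and -0.76, and without C7 of minipig 1 they were 1.68, 1.93, 1.03 and -0.03, with 0 called. Without all libraries of minipig 1, which leaves 1 LR library assumed to vary like the other groups, ssc-miR-9-1 (2.48, adjusted p = 0.00223), ssc-miR-204 (2.84, adjusted p = 0.00223) and ssc-miR-9 (1.52, adjusted p = 0.0476) were called, among 6 of the 411 rows. Early, Mid, Late and LR share the pre-TBI libraries, so these fold changes are not independent of each other.

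Mid against Early and LR against Mid do not compare the Late or pre-TBI libraries, but these entered the same fit and its estimate of the spread. Without 17d of minipig 1 the calls of Mid against Early over all rows went from 0 to 21, and without its C7 library to 17. Mid against Early gave 0 calls among the 4 measurements and 0 among 411 rows (0%), with 1 of 4 and 95 of 411 (23.1%) at an unadjusted p under 0.05. The 1 was ssc-miR-204, with a log2 fold change of 1.40 (SE 0.51, adjusted p = 0.104). It was called with only these 2 groups in the fit (1.46, adjusted p = 0.0243) where 44 of the 411 rows were called. It was 1.46 (adjusted p = 0.0510) without C7 and 0.75 without 10d of minipig 1. DESeq2 called 42 of the 411 rows, and 0 of the 3 measurements for which it gave an adjusted p, which leaves out ssc-miR-138. The log2 fold change was 0.58 (SE 0.50) for ssc-miR-9-1, 0.49 (SE 0.45) for ssc-miR-9 and 0.53 (SE 0.28) for ssc-miR-138, and without 10d of minipig 1 these values were -0.29, -0.56 and 0.34.

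LR against Mid gave 0 calls among the 4 measurements and 0 among 411 rows (0%), with 0 of 4 and 25 of 411 (6.08%) at an unadjusted p under 0.05. The log2 fold change was 0.73 (SE 0.71) for ssc-miR-9-1, 0.19 (SE 0.64) for ssc-miR-9, 0.61 (SE 0.74) for ssc-miR-204 and -0.36 (SE 0.38) for ssc-miR-138. Without minipig 1, ssc-miR-9-1 (2.50, adjusted p = 0.0302) and ssc-miR-9 (2.02, adjusted p = 0.0489) were called, among 5 of the 411 rows and again with a lone LR library. Without the 20d library of minipig 2 the 4 values were -0.38, -0.25, -1.59 and -1.09 in the order just given. DESeq2 called 0 of the 4. Without the 10d library of minipig 1 the 4 values were 1.60, 1.21, 1.29 and -0.18 in the same order, with 0 called. The signs of ssc-miR-9-1, ssc-miR-9 and ssc-miR-204 in LR against Mid thus changed with the 20d library of minipig 2.

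By single days other than 17d, 0 of the 4 measurements were called on any of the 7 days by edgeR or DESeq2 with all animals. Without minipig 1, which leaves a lone 20d library, ssc-miR-9-1 (2.48, adjusted p = 0.00506) and ssc-miR-204 (2.84, adjusted p = 0.0143) were called at 20d, among 5 of the 411 rows. Of all rows, edgeR called 1.22% at 3d, 0.243% at 14d, 0.73% at 20d and 0% on the 4 other days. With DESeq2 the share was 6.08% for 1d and 5.11% for 3d, then 0.487% for 14d and 1.46% for 20d, with 0% on the 3 other days. The smallest unadjusted p, 0.0415, was that of ssc-miR-9 at 10d, with a log2 fold change of 1.27 (SE 0.58, edgeR adjusted p = 0.633), and -0.63 (SE 0.82) without the 10d library of minipig 1. At 14d the log2 fold change of ssc-miR-9-1 was -0.59 (SE 0.72) and that of ssc-miR-204 was -0.21 (SE 0.77), both below 0, while at 10d both were above 0. Without C7 of minipig 1 the 14d values were -0.15 and 0.33, so the sign of ssc-miR-204 at 14d rested on that baseline library. Between the draws before TBI, C1 against C7, the log2 fold change was -0.77 (SE 0.70) for ssc-miR-9-1 (-0.04 without minipig 1) and -1.02 (SE 0.75) for ssc-miR-204 (0.11 without minipig 1), and 0 of the 4 measurements and 0 of 411 rows (0%) were called, with 0 of 4 and 3 of 411 (0.73%) at an unadjusted p under 0.05.

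The ratio of ssc-miR-9-1 to ssc-miR-204 counts within a library does not depend on scaling, and it is given as a description chosen after the values were seen. Before TBI it ran from 0.604 to 1.00. At 1d it was 1.19, 1.32 and 2.20 in minipigs 1, 2 and 3. At 17d it was 0.449 in minipig 1 and 0.631 in minipig 2, and at 20d 1.36 and 0.529. At 1d all 3 libraries thus had more ssc-miR-9-1 than ssc-miR-204, and at 17d both had less.

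To set the members beside other miRNAs of the same and other tissues, lists were matched by number. The neural list had 19 rows, among them miR-124a, miR-128 and miR-137, which are abundant in neurons. Its median log2 fold change at Late was 0.34, beside 0.08 over all 411 rows. Of all 411 rows, 16 were called higher and 2 lower at Late, and of the 19 list rows 0 were called higher and 1 lower. The row called lower was ssc-miR-383 (-1.51, SE 0.38, adjusted p = 0.0215), with 427 and 1335 CPM at 17d in minipigs 1 and 2 against 1818 to 3398 before TBI. It was called under DESeq2 and with the minipig as a replicate block, but the list had 0 calls with scaling by library size alone, without minipig 1 and without minipig 3. With the lone 17d library of minipig 1 as Late, after minipig 2 was left out, it had 6, of which 1 was higher and 5 lower, among 77 of the 411 rows. The 5 include ssc-miR-129a-5p and its identical row ssc-miR-129b, so they are 4 measurements. The 0 called higher also changed without C7 of minipig 1, where ssc-miR-137 (2.84, adjusted p = 0.0251) and ssc-miR-153 (2.39, adjusted p = 0.0217) were called higher among 36 of the 411 rows. Leaving out 17d of minipig 2 gave log2 fold changes of 3.63 for ssc-miR-137, 3.35 for ssc-miR-153 and -2.60 for ssc-miR-383, from a lone Late library.

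In the animals, the neural list did not follow the order of ssc-miR-9-1 and ssc-miR-204 at 17d. Its summed share of counts was 1.99% to 6.30% before TBI, and at 17d 8.72% in minipig 1 and 1.85% in minipig 2, although both members were higher in minipig 2. In minipig 1 the sum at 17d was mostly ssc-miR-124a, which had 98545 CPM in minipig 1 and 5968 CPM in minipig 2 at 17d, against 3069 to 57637 CPM before TBI. The top of that range is C7 of minipig 1, where ssc-miR-124a made up 4.82% of counts. In the next pre-TBI library, C1 of minipig 2, it made up 2.78%. ssc-miR-137 had 1615 and 94.2 CPM against 39.6 to 737. The 19 rows hold 2 pairs of identical rows and thus 17 measurements. By CPM after TMM scaling, 11 of these were higher in minipig 1 and 6 in minipig 2 at 17d. The scaling factors were 0.722 in minipig 1 and 1.00 in minipig 2. Before TMM scaling some of the 11 turned the other way, and minipig 1 no longer held the majority. Without ssc-miR-124a the list made up 1.60% and 1.25% of counts, against 1.27% to 1.58% before TBI. The part of this composition in the members' levels of minipig 1 was not tested.

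The epithelial and sensory list had 6 rows, with a median log2 fold change of 1.06 at Late. Of these, 2 were called higher and 0 lower, beside 16 higher and 2 lower of all 411 rows. At an unadjusted p under 0.05 in edgeR, 2 were higher and 1 lower, beside 64 and 29 of all 411 rows. The list rows called were ssc-miR-182 (5.44, SE 0.98, adjusted p = 0.00102) and ssc-miR-96-5p (1.97, SE 0.38, adjusted p = 0.00125). They belong with miR-183 to a cluster expressed in retina and other sensory organs. ssc-miR-182 had 2375 CPM in minipig 1 and 176450 CPM in minipig 2 at 17d, against 392 to 3041 CPM before TBI. ssc-miR-96-5p had 427 and 942 CPM against 119 to 442. In both rows minipig 2 was above the pre-TBI range and minipig 1 was within it, for ssc-miR-96-5p only through C7 of minipig 1, without which the range ends at 179.9 CPM. ssc-miR-183 was within its pre-TBI range in minipig 2, with 12392 CPM against 1344 to 56065, and above it in minipig 1, with 96123 CPM. Without C7 of minipig 1 that range ends at 26791 CPM, and both animals keep their place relative to it. The remaining rows did not follow ssc-miR-182. ssc-miR-205 had 1377 and 1555 CPM at 17d in minipigs 1 and 2 against 1277.5 to 6360 before TBI. ssc-miR-429 had 617 and 236 CPM against 365 to 993, and ssc-miR-184 had 380 and 346 CPM against 147 to 351. DESeq2 called 1 of the 6 rows, ssc-miR-96-5p, beside 27 of all 411 rows. Both edgeR calls were lost without minipig 2, which leaves a lone Late library. As for ssc-miR-383, both calls were also lost with only the 2 groups in the fit and with C7 alone as baseline.

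ssc-miR-182 made up 17.7% of all counts at 17d and 3.35% at 20d of minipig 2, and 0.171% at 17d of minipig 1. TMM scaling is meant to limit the effect of such a single row on the CPM of the others. In these libraries of minipig 2, ssc-miR-9-1 and ssc-miR-204 were above their pre-TBI range, whereas at 20d ssc-miR-9 and ssc-miR-138 were within it, though not once C7 of minipig 1 was left out. Whether the members and ssc-miR-182 share a source was not tested.

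Blood cell, liver and muscle miRNAs gave no call at Late in edgeR, where 4.38% of all rows were called. There 0 of 3 erythroid rows passed, with a median log2 fold change of -1.65, and their summed share was 0.604% to 1.02% at 17d against 1.02% to 9.02% before TBI. Of 12 platelet and leukocyte rows 0 were called (median 0.26), as were 0 of 6 liver and gut rows (median 0.07) and 0 of 8 muscle and heart rows (median 0.39). At an unadjusted p under 0.05 the numbers were 1, 3, 0 and 1 rows in this order, beside 93 of all 411 rows (22.6%), and DESeq2 called 0, 1, 0 and 0. The summed share of the platelet and leukocyte list was 15.5% in minipig 1 and 1.08% in minipig 2 at 17d against 2.46% to 10.8% before TBI, and its part in the members' levels was not tested. Leaving out minipig 1, minipig 2 or either 17d library leaves a lone Late library, and in each of these settings this list was no longer without a call. The log2 fold change of ssc-miR-150 was 1.23 without minipig 1 and 1.20 without its 17d library. That of ssc-miR-191 was -3.59 without minipig 2 and -3.45 without its 17d library, where ssc-miR-146a-3p had 2.83 and ssc-miR-155-3p 3.45. Without 17d of minipig 2 the liver and gut list was no longer without a call either, and ssc-miR-194a had a log2 fold change of 1.72. In that setting the calls over all rows rose as well, as given above. At Early, Mid and LR, 0 rows of the lists were called by edgeR with all libraries and TMM. With library size alone 1 muscle and heart row was called at Early, beside 13 of all 411 rows. DESeq2 called 3 of the 8 there, beside 33 of the 411. The epithelial and sensory list was no longer without a call at LR once minipig 1 was left out, which leaves a lone LR library.

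Correlations between the members across the 24 libraries changed with the libraries kept. Pearson's correlation of log2 CPM was 0.907 between ssc-miR-9-1 and ssc-miR-204, 0.748 between ssc-miR-9-1 and ssc-miR-138 and 0.811 between ssc-miR-204 and ssc-miR-138. Over the 22 libraries without 17d these values were 0.785, 0.573 and 0.653. Leaving out C7 and 10d of minipig 1 as well, they were 0.596, 0.032 and 0.241 over 20 libraries, so outside 17d the members correlated less without those libraries. The libraries come from 3 animals and differ in depth, so these are descriptions of these libraries only.

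Outside the members, ssc-miR-96-5p was the row most like ssc-miR-9-1 (0.850 over 24 libraries, 0.627 over the 22 without 17d), ssc-miR-9 (0.827 and 0.631) and ssc-miR-204 (0.818 and 0.552). For ssc-miR-9-1 the next were ssc-miR-9784-5p (0.692), ssc-miR-9820-5p (0.687), ssc-miR-130a (0.680) and ssc-let-7e (0.671). For ssc-miR-9 they were ssc-miR-34a (0.787), a miRNA induced by p53, then ssc-miR-9784-5p (0.763), ssc-miR-378 (0.760) and ssc-miR-130a (0.756). Without the 17d libraries ssc-miR-96-5p was no longer first for these 3, as ssc-miR-130a (0.694) exceeded it for ssc-miR-9-1, ssc-miR-34a for ssc-miR-9 and ssc-miR-152 (0.765) for ssc-miR-204. The likeness to ssc-miR-96-5p was lower without the 17d libraries, whereas that of ssc-miR-34a to ssc-miR-9 was 0.843 without them.

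For ssc-miR-204 the next were ssc-miR-9784-5p (0.743), ssc-miR-152 (0.742), ssc-miR-182 (0.742) and ssc-miR-130a (0.730). For ssc-miR-138 the order was ssc-miR-152 (0.851), ssc-miR-130b (0.844), ssc-miR-9784-5p (0.826), ssc-miR-2411 (0.820) and ssc-miR-96-5p (0.800). ssc-miR-152 had 1235 CPM in minipig 1 and 408 CPM in minipig 2 at 17d against 136.9 to 884 before TBI, and its correlation with ssc-miR-138 was 0.793 without the 17d libraries.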

How the data were processed

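Small RNA libraries of plasma (TruSeq kit, NextSeq) were made by the authors, who trimmed reads with Cutadapt, mapped them to ssc5 with Bowtie (Bowtie2 2.2.3.0 in the submitters' processing notes) and to miRBase, and used miRDeep2 for quantification. The deposited values are raw counts per ssc-miRNA, without normalization, which the authors gave for 411 rows in 30 libraries. All columns were matched to samples by title. How reads that fit several rows were counted is not given in the sources used here. PCR copies were not separated, so the exact binomial intervals and all p-values cover counting error and the spread between these libraries only.

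Libraries under 1000 counts were left out, a minimum set with the totals known. Counts were tested with edgeR 4.0.16 in R 4.3.3 (quasi-likelihood F test, TMM, a filter of 0.5 CPM in 3 libraries or more that removed 0 rows), with 5 phase groups in 1 fit, 9 groups for single days and 10 groups for C1 against C7, and without a term for the animal. P-values were adjusted by Benjamini-Hochberg over the 411 rows. Standard errors were taken as |log2 fold change| over the root of F. For rows with less spread than Poisson counting edgeR raises p, so p and the error need not match. The fit used a prior count of 0.125 and log2 CPM one of 2. Intervals and ratios were also computed in R. Figures and the check for outlying libraries were made in Python 3.11.15 (matplotlib 3.10.9, numpy 2.4.6, pandas 2.3.3). The test was run first on simulated counts with known changes.

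The design pairs libraries by animal. After phase means were subtracted, libraries correlated at 0.159 on average within a minipig and at -0.148 between minipigs. Duplicate libraries were not found within a phase (smallest chi-square per degree of freedom 21.8 over 68 pairs). The miRNAs named are the members, for each the 5 other rows with the highest correlation, and the rows of the other lists called in a phase; further rows of those lists (ssc-miR-124a, ssc-miR-137, ssc-miR-153, ssc-miR-183, ssc-miR-194a, the ssc-miR-129 pair) and the ssc-miR-339 pair were chosen after their values were seen. The members and lists were chosen with earlier results of these data known. Alternatives were a replicate block for the minipig, library size, DESeq2 1.42.0, fewer groups, C7 or C1 alone, thinning to 24341 counts, other filters, collapsed rows and leaving out minipigs or libraries.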

Additional observations from a re-analysis of the deposited data

Results flagged for a closer look

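Among the 6 pre-TBI libraries, C7 of minipig 1 was far above the others for ssc-miR-204, with 10.38 log2 CPM against 8.48 in the next library (gap over range 0.656, Dixon's 95% limit 0.625). The same library was far above the others for ssc-miR-138, with 7.985 log2 CPM against 6.844 in the next (gap over range 0.809). It is the shallowest of the 24 libraries, with 24341 counts, of which 27 were ssc-miR-204 and 5 were ssc-miR-138. Of 12 groups of libraries tested in this way 2 stood out, both through this library. For a single group chance alone gives about 1 in 20. The groups are correlated measurements over the same libraries, so 2 of 12 cannot be set against that rate.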

How the results depend on the processing

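Each of the 4 measurements was compared in 5 tested contrasts, which gave 780 alternative values, of which 6 were called and 54 changed sign. The 6 calls are those given in the report, 5 without minipig 1 and 1 (ssc-miR-204 in Mid against Early, 1.46) with only the 2 groups compared. The minipig as a replicate block changed no member call, and at Late it gave 3.79, 2.78, 3.70 and 1.85 for ssc-miR-9-1, the row ssc-miR-9, ssc-miR-204 and ssc-miR-138, the order kept below. Over the settings other than leaving out, Late ran from 2.90 to 4.11, 2.36 to 3.01, 3.33 to 4.45 and 1.50 to 2.02. Scaling by library size moved the median of all rows at Late from 0.08 to -0.21. Leaving out single libraries and keeping all 29 libraries with a count were alternatives chosen after seeing the data.
Among the settings other than leaving out, these values changed sign. For ssc-miR-9-1 they were, at Early, 0.042 with the replicate block, 0.058 with 2 groups, 0.36 with C1 alone and 0.038 with 29 libraries, and at Mid -0.21 with thinned counts and the block. For ssc-miR-9 they were, at Early, -0.26 with C7 alone, -0.13 with thinned counts and -0.042 with thinned counts and the block, and in LR against Mid -0.033 with thinned counts. For ssc-miR-138 they were, at LR, 0.024 with library size, 0.086 with DESeq2, 0.076 with C1 alone, 0.047 with collapsed rows and 0.041 with 29 libraries. With thinned counts, without and with the block, ssc-miR-138 was -0.82 and -0.94 at Mid, -0.50 and -0.58 in Mid against Early, and 0.38 and 0.41 in LR against Mid. These rest on few counts per library, and the cause was not tested.
Without 1 minipig or 1 library, Early ran from -0.50 to 0.55, -0.34 to 0.57, -0.93 to -0.12 and -0.35 to -0.19. Mid ran from -0.36 to 1.07, -0.52 to 1.22, 0.09 to 1.35 and -0.038 to 0.67, and Late from 1.59 to 5.07, 1.73 to 3.62, 2.23 to 5.17 and 1.68 to 2.20. LR ran from 0.14 to 2.48, 0.28 to 1.52, -0.81 to 2.84 and -0.76 to 0.44. Mid against Early ran from -0.56 to 1.20, -1.07 to 1.24, 0.75 to 1.84 and 0.16 to 0.91, and LR against Mid from -0.93 to 2.50, -0.93 to 2.02, -1.90 to 2.03 and -1.38 to 0.47. C1 against C7 ran from -1.63 to 0.11 for ssc-miR-204 and from -0.59 to 0.0081 for ssc-miR-138 without 1 minipig. The calls over all rows ran from 0 to 108 at Late, 0 to 41 at Early and 0 to 44 in Mid against Early over all settings. With 2 animals at Mid, Late and LR and 10 to 49 counts of a member at 17d of minipig 1, depth and animals limit these values.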
